A study of Mus musculus with 12 samples.

Results

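The 10 genes described here carry out branched-chain amino acid (BCAA) catabolism: Bcat2, Bckdha, Bckdhb, Dbt, Bckdk, Ppm1k, Ivd, Mccc1, Mccc2 and Mut. They were chosen by name from the 13552 genes of the table. Under its own symbol 9 of them were found, and Mut was found by its gene identifier (ENSMUSG00000023921) under its present symbol Mmut, the name used below. RNA was measured by sequencing in whole hearts of 12 male mice, 3 in each of 4 groups, 9 h after surgery. Transverse aortic constriction (TAC) ties a suture around the aortic arch so that the left ventricle pumps against a raised pressure, and sham surgery leaves the aorta open. Wild-type (WT) mice and mice homozygous for the Bcl-xL S14A knock-in (KI) were each given sham surgery or TAC, at 8 to 10 weeks of age by the methods. Both genotypes are labelled C57BL/6, and the methods give C57BL/6J, for the KI line after repeated backcrossing. In KI mice codon 14 of Bcl-xL, a protein that guards cells against apoptosis, reads alanine in place of serine, in every tissue and not in cardiomyocytes alone. A CMV-Cre mouse had been used to remove the selection cassette of that allele. The WT mice of the study were purchased while the KI line was bred, and whether littermates were compared is not given in the sources used here. A codon change cannot be seen in expression values, so the genotype labels could not be checked. The comparisons ask how the BCAA genes respond to acute pressure overload and whether the response depends on Ser14 of Bcl-xL.

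Leucine, isoleucine and valine are the branched-chain amino acids, and outside the liver most tissues begin to break them down by moving their amino group onto 2-oxoglutarate. The resulting ketoacids are then committed to oxidation by the mitochondrial branched-chain ketoacid dehydrogenase complex (BCKDH), which a kinase switches off by phosphorylation and a phosphatase switches on again. The carbon of leucine leaves the pathway as acetyl-CoA and acetoacetate, and that of valine and part of isoleucine as propionyl-CoA, which becomes succinyl-CoA. In the heart the pathway is known for falling in failing and overloaded muscle, where its transcription is linked to the factor KLF15.

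Each library held 23651500 to 32453300 reads on genes, recovered from the table because 95.5% to 97.5% of its low values were whole reads within 0.05 of a read. Values are in RPKM, which divides a gene's reads by its exon length and by the depth of its library. The length that gave whole reads counts all annotated exons of a gene, 10952 bases for Mccc1 and 2802 for Mccc2. Levels compared between genes therefore depend on that annotated length. The 10 genes had 699 to 23085 reads each per mouse, and all 10 passed the filter for testing (at least 1 RPKM in at least 3 mice, 11240 genes). The tissue label fits its markers in that all 7 cardiomyocyte genes looked for were in the table, with a summed level of 4025 to 9541 RPKM, while none of 4 skeletal muscle genes and only 1 of 6 fat genes were.

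In WT sham hearts the level of the 10 genes spanned more than a factor of 10. Bckdha was highest with a mean of 141 RPKM ± 19.6 (SD, n = 3), followed by Ivd at 120.2 ± 9.18. Their lowest and highest mice overlapped, so these neighbours in the order do not differ beyond their spread. Below them came Bckdhb (34.7 ± 3.48) and Bckdk (29.3 ± 2.40), whose mice did not overlap each other. Mccc2 (21.5 ± 3.73), Mmut (20.96 ± 2.79) and Bcat2 (18.8 ± 3.85) formed a run of overlapping levels, as did Dbt (13.2 ± 1.63), Ppm1k (11.95 ± 2.75) and, at the bottom, Mccc1 (9.24 ± 0.642) with Ppm1k. Within BCKDH the mean level of Dbt was thus far under that of Bckdha, and the kinase gene stood above the phosphatase gene in every WT sham mouse. The cytosolic transaminase gene Bcat1, not among the 10, lay between 0.0568 and 0.786 RPKM in the 12 mice and was not tested.

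The promoters of genes whose level moved with TAC in either genotype are shown first, as the 250 bases before the transcript start that RefSeq gives (GRCm38.p6, 5′ to 3′ on the gene's strand). Bcat2 is added as the gene with the least shared pattern. Capitals mark CCAAT on either strand (CCAAT or ATTGG), a pentamer chosen after these windows had been read.
Bckdhb, chr9:83924887-83925136, plus strand: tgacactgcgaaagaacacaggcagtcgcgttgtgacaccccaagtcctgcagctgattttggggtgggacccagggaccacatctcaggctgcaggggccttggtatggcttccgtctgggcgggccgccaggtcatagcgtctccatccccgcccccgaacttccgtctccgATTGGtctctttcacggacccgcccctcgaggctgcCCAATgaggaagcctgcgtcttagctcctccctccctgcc
Mccc2, chr13:100015640-100015889, minus strand: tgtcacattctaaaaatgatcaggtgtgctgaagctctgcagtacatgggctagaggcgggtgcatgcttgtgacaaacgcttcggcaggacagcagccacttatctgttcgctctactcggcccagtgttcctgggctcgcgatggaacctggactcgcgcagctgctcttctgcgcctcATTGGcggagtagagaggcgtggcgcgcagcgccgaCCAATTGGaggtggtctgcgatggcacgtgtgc
Ppm1k, chr6:57535488-57535737, minus strand: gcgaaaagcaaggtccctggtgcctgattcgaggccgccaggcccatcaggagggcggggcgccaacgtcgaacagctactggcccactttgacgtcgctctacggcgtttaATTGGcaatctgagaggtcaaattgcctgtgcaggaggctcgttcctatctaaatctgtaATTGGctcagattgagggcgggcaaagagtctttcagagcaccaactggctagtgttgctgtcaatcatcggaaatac
Bcat2, chr7:45569903-45570152, plus strand: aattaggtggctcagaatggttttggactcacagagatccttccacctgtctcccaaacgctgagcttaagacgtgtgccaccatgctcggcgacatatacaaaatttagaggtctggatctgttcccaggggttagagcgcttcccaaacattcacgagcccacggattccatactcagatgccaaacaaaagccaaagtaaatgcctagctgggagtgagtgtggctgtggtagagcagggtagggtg

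Motifs were counted in windows from 250 bases before to 50 bases after the start, of which the printed stretches are the first part. Of the 8 members with a window (Dbt and Mmut had none), 6 held CCAAT. The share was 37.4% of 32851 windows of all genes and 36.9% of the 13275 windows of genes in the table. Bckdhb and Ppm1k held 2 copies each, and Bcat2 and Bckdha none. In Bckdha (by 220 bases) and Ivd (by 40 bases) the stretches before the start reach into the transcripts that GENCODE M21 annotates and are not printed. Of the motifs looked for by plan on both strands, AAGGTCA (bound by estrogen-related receptors) was in 0 of 8 windows against 4.72% of all windows and 3.29% of those of table genes, and CCGGAAG (bound by ETS factors such as GABP) was in 0 of 8 against 8.86% and 16.3%. The E-box CACGTG was in 1 of 8, against 7.15% and 9.79%. That copy is in Mccc2, in lower case above, close to its start. These matches describe letters in these windows only.

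TAC in WT hearts. All 10 genes had a lower mean after TAC than after sham surgery, and 3 of them fell past the threshold: Bckdha and Bckdhb, the E1 alpha and E1 beta subunits of BCKDH, and Mccc2, a subunit of the leucine-branch carboxylase. The test was limma on log2(RPKM + 1) over all 12 mice, with a Benjamini-Hochberg adjusted p under 0.05 as threshold. In this comparison 4.60% of the genes tested fell and 6.96% rose. In 6 of the 10 genes all 3 TAC mice lay below all 3 sham mice, against 15.0% of the genes tested. The median log2 fold change of the 10 genes was -0.59, beside 0.035 for all genes tested. Since whole hearts were used, fewer cells of a type and less RNA per cell cannot be told apart in any of these differences.

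Bckdha (chr7:25629946-25658981, minus strand) encodes the catalytic alpha subunit that the kinase phosphorylates. It was at 164, 133 and 127 RPKM in WT sham mice 1, 2 and 3 and at 77.0, 100.3 and 60.2 in WT TAC mice 7, 9 and 10. The groups did not overlap, and the log2 fold change was -0.85 ± 0.23 (SE, limma adjusted p = 0.0286). Its exons share bases with B3gnt8 on the other strand, as those of Bcat2, Mccc1 and Mmut do with other genes, and whether reads were counted by strand is not given in the sources used here.

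Bckdhb (chr9:83925145-84124240, plus strand), which encodes the partner beta subunit, was at 38.7, 32.4 and 33.0 RPKM after sham surgery and at 18.5, 23.8 and 16.8 after TAC. Every TAC mouse was below every sham mouse, with a log2 fold change of -0.80 ± 0.22 (limma adjusted p = 0.0298). Dbt (chr3:116513070-116549981, plus strand) encodes the E2 core to which the other subunits bind. Its values were 11.5, 14.7 and 13.5 RPKM after sham surgery and 8.12, 8.65 and 11.8 after TAC. TAC mouse 10 reached into the sham range, and the change of -0.45 ± 0.19 did not pass (limma adjusted p = 0.147).

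Neither gene of the switch of the complex passed in WT hearts. Bckdk (chr7:127904082-127910221, plus strand), the inhibitory kinase, was at 31.9, 29.0 and 27.1 RPKM after sham surgery and at 19.6, 22.5 and 19.9 after TAC, with no overlap. Its log2 fold change of -0.48 ± 0.17 missed the threshold (limma adjusted p = 0.0858). Ppm1k (chr6:57506502-57535468, minus strand), the activating phosphatase, was at 9.82, 10.98 and 15.1 RPKM after sham surgery and at 4.85, 4.71 and 11.7 after TAC. WT TAC mouse 10 stood among the sham mice while the other 2 were far below them. The log2 fold change was -0.76 ± 0.31 (limma adjusted p = 0.126), and without WT TAC mouse 10 it was -1.14 (limma adjusted p = 0.0145).

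In the leucine branch, Mccc2 (chr13:99948530-100015639, minus strand), the beta subunit of methylcrotonyl-CoA carboxylase, was at 25.8, 19.4 and 19.2 RPKM after sham surgery. After TAC it was at 10.95, 12.6 and 13.3, all below the sham mice, and the log2 fold change was -0.75 ± 0.20 (limma adjusted p = 0.0280). Mccc1 (chr3:35959312-36000678, minus strand), the biotin-bearing alpha subunit, was at 9.98, 8.84 and 8.90 RPKM after sham surgery and at 5.52, 5.87 and 6.99 after TAC. It too showed no overlap, but its -0.53 ± 0.17 did not pass (limma adjusted p = 0.0641). Ivd (chr2:118861954-118882909, plus strand), isovaleryl-CoA dehydrogenase, was at 131, 117 and 113 RPKM after sham surgery and at 72.7, 91.2 and 64.7 after TAC. The groups were apart, and the change of -0.66 ± 0.20 lay just outside the threshold (limma adjusted p = 0.0505).

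At the ends of the pathway neither gene passed. Bcat2 (chr7:45570153-45589711, plus strand), the mitochondrial transaminase of the first step, was at 22.9, 18.4 and 15.2 RPKM after sham surgery and at 14.1, 14.9 and 16.7 after TAC. Its groups overlapped, and the log2 fold change of -0.27 ± 0.27 had a 95% interval from -0.85 to 0.30 (limma adjusted p = 0.534). Mmut (chr17:40934685-40961988, plus strand), the cobalamin-dependent mutase that makes succinyl-CoA, was at 18.4, 23.9 and 20.5 RPKM after sham surgery and at 12.1, 13.4 and 18.7 after TAC. Only TAC mouse 10 reached the sham range, and the change of -0.50 ± 0.22 did not pass (limma adjusted p = 0.158).

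**Figure D1:**
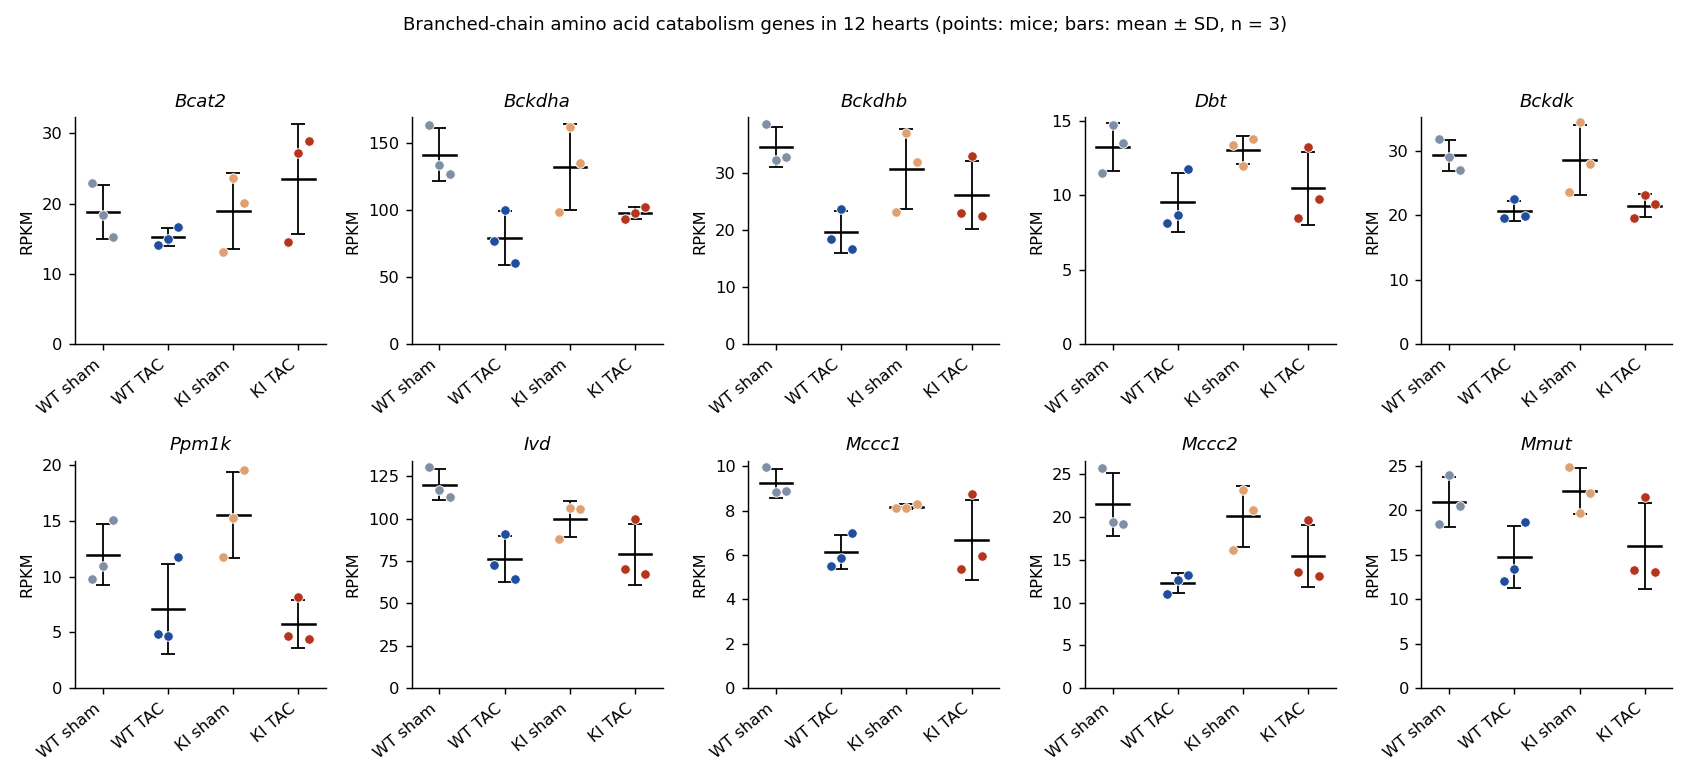
RPKM of the 10 BCAA genes in the 12 hearts, 1 panel per gene with its own axis from 0. Points are mice and bars the mean ± SD of 3 mice. In WT hearts Bckdha, Bckdhb, Bckdk, Ivd, Mccc1 and Mccc2 show TAC points that all lie below the sham points, in KI hearts only Bckdk and Ppm1k do.

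The 3 calls in WT hearts rest on few mice. WT sham mouse 1 was the highest WT sham mouse for all 3 genes. Its library also had the lowest share of reads on genes of the mitochondrial genome. That share was 6.36%, while the other libraries ran from 9.76% to 12.5%. What it did to the results was not tested. Without WT sham mouse 1, 2 or 3, or without WT TAC mouse 7, none of Bckdha, Bckdhb and Mccc2 passed (limma adjusted p from 0.0577 to 0.118, with log2 fold changes from -0.62 to -0.92). Bckdha and Bckdhb also did not pass without WT TAC mouse 10 (limma adjusted p = 0.0787 and 0.0718), nor Mccc2 without WT TAC mouse 9 (0.0588). Before adjustment 9 of the 10 genes, and 3135 of all 11240 tested, had a p under 0.05. Limma-voom on the recovered reads called 4 of the 10, with Ivd added, and 1271 of 11236 genes.

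TAC in KI hearts. Ppm1k alone passed the threshold, and it fell. The KI sham mice 1, 2 and 3 were at 11.8, 15.3 and 19.5 RPKM and the KI TAC mice 5, 6 and 7 at 4.64, 8.19 and 4.42, without overlap. The log2 fold change of the phosphatase gene was -1.31 ± 0.31 (limma adjusted p = 0.00853), and the call held when any of the 12 mice was left out (largest adjusted p = 0.0466). Of the genes tested, 14.7% fell and 8.57% rose in this comparison, so 1 fallen gene of 10 was no more than the background share.

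The kinase gene Bckdk was at 23.6, 34.4 and 27.9 RPKM in KI sham mice and at 19.6, 23.1 and 21.7 in KI TAC mice. Its groups were apart by a narrow margin, with a log2 fold change of -0.39 ± 0.17 that did not pass (limma adjusted p = 0.123). Thus 2 of the 10 genes had no overlap, against 24.7% of the genes tested.

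The subunit genes of BCKDH overlapped between KI sham and KI TAC. Bckdha was at 98.5, 162 and 135 RPKM and then at 93.5, 97.4 and 102 (log2 fold change -0.40 ± 0.23, limma adjusted p = 0.223). Bckdhb was at 23.2, 37.1 and 31.9 and then at 23.1, 33.1 and 22.5 (-0.22 ± 0.22, limma adjusted p = 0.501). For both genes KI sham mouse 1 was about as low as TAC mice 5 and 7, and KI sham mice 2 and 3 were higher. Dbt was at 13.3, 11.98 and 13.7 and then at 8.47, 13.2 and 9.72 (-0.31 ± 0.19, limma adjusted p = 0.261), where TAC mouse 6 was level with the sham mice.

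The leucine branch and Mmut showed the same split among the KI TAC mice. Ivd was at 87.8, 107 and 106 RPKM after sham surgery and at 70.3, 99.8 and 67.2 after TAC (limma adjusted p = 0.226). Mccc1 was at 8.12, 8.10 and 8.31 and then at 5.36, 8.74 and 5.97 (limma adjusted p = 0.259), and Mccc2 at 16.2, 23.2 and 20.9 and then at 13.5, 19.6 and 13.1 (limma adjusted p = 0.202). Mmut was at 24.8, 19.7 and 21.9 and then at 13.2, 21.5 and 13.1 (limma adjusted p = 0.130). In all 4 genes TAC mice 5 and 7 were low and TAC mouse 6 lay within or above the sham range. Without mouse 6 the change of Mmut was -0.70 and passed (limma adjusted p = 0.0400), so that 2 of the 10 genes were called.

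Bcat2 moved the other way on average. It was at 13.1, 23.6 and 20.1 RPKM in KI sham mice and at 14.5, 27.2 and 28.9 in KI TAC mice, and the difference of 0.28 ± 0.27 did not pass (limma adjusted p = 0.482). The median log2 fold change of the 10 genes was -0.36, beside -0.10 for all genes tested. Median-ratio scaling between libraries moved the median of all genes to 0.0030 and that of the 10 genes to -0.23. Relative to the median of all genes, Ppm1k fell by 1.21 and Bckdk by 0.28.

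**Figure D2:**
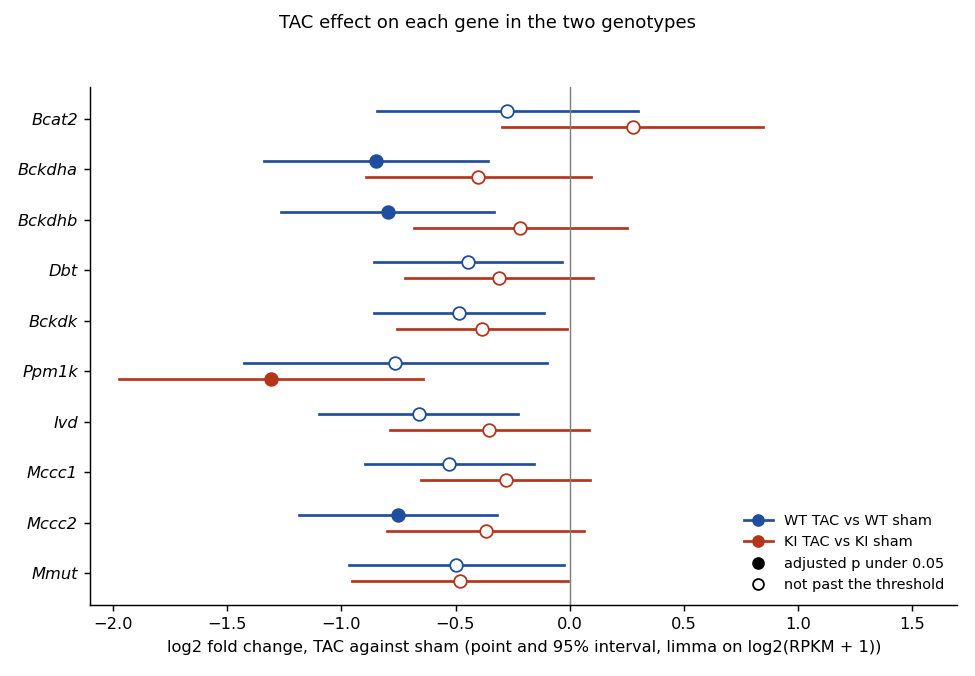
Log2 fold change of each BCAA gene, TAC against sham, in WT (blue) and KI (red) hearts, from limma on log2(RPKM + 1). Points are estimates and lines 95% intervals, filled where the adjusted p is under 0.05. The filled points are Bckdha, Bckdhb and Mccc2 in WT hearts and Ppm1k in KI hearts, and the intervals of the genotypes overlap for every gene.

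Genotype. None of the 10 genes differed between KI TAC and WT TAC hearts in limma, at an unadjusted p under 0.05 or in limma-voom, while 11.0% of the genes tested passed in either direction. That share rests on few mice. The 1242 genes behind it became 162, 1592 or 797 without mouse 7, 9 or 10 of the WT TAC group. Without mouse 5, 6 or 7 of the KI TAC group they became 646, 186 or 1822. The largest difference was that of Bcat2, at 0.54 ± 0.27 with a 95% interval from -0.034 to 1.11 (limma adjusted p = 0.189). Bckdhb was 0.39 higher (interval -0.077 to 0.86), Bckdha 0.33 higher (-0.16 to 0.82) and Mccc2 0.29 higher (-0.14 to 0.72), none past the threshold. Ppm1k had the only negative difference, -0.20, with an interval from -0.86 to 0.47. Ivd at 0.045 took a negative sign under quantile normalization. The median over the 10 genes was 0.11, beside -0.12 for all genes, and without KI TAC mouse 6 it was -0.023 with 6 of 10 differences negative. With quantile normalization and median-ratio scaling it was 0.21 and 0.25, beside medians of all genes near 0, and leaving out any other TAC mouse gave 0.027 (WT TAC mouse 7) to 0.23 (KI TAC mouse 5).

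Between KI sham and WT sham hearts none of the 10 genes passed either, in limma, at an unadjusted p under 0.05 or in limma-voom, where 0.0178% of the genes tested did. Ivd and Mccc1 were lower in all 3 KI sham mice than in all 3 WT sham mice, by 0.26 (interval -0.70 to 0.17) and 0.16 (-0.53 to 0.22) on the log2 scale. Over all 11240 genes tested, 134 were lower without overlap. Ppm1k had the largest estimate, 0.34 higher in KI sham hearts with an interval from -0.32 to 1.01. The comparisons share groups, so their values for a gene are not independent of each other.

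Whether the TAC effect depended on genotype was tested by the interaction (the KI effect minus the WT effect). The p-values here and above measure the spread between these mice only. No gene of the table passed in limma (0% called, 1668 below 0.05 before adjustment) and none in limma-voom. Among the 10 genes 0 had an unadjusted p under 0.05. The estimates ran from -0.54 for Ppm1k (interval -1.48 to 0.40) to 0.58 for Bckdhb (-0.080 to 1.24, limma adjusted p = 0.388). Thus neither the fall of Bckdha, Bckdhb and Mccc2 in WT hearts nor that of Ppm1k in KI hearts is shown to be particular to a genotype. The intervals reach past 1 log2 unit for Bckdha, Bckdhb and Ppm1k and to 0.996 for Mccc2.

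Ratios within the pathway can be formed in each mouse, since RPKM is per length, though their level depends on the annotated exon lengths. The log2 ratio of kinase (Bckdk) to phosphatase (Ppm1k) was 1.698, 1.401 and 0.85 in WT sham mice and 2.02, 2.26 and 0.76 in WT TAC mice. WT TAC mouse 10, whose Ppm1k was high, had the lowest ratio of both groups. In KI sham mice the ratio was 1.00, 1.17 and 0.52 and in KI TAC mice 2.08, 1.497 and 2.29, where every TAC mouse lay above every sham mouse. No test was run on this ratio. The smallest two-sided p an exact permutation test of 3 against 3 mice allows is 0.1. The ratio of Bckdha to Bckdhb was steadier, between 1.84 and 2.19 in 11 mice, with KI TAC mouse 6 apart at 1.56. In that mouse Bckdhb was high and Bckdha was not.

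A score per mouse, the mean log2(RPKM + 1) of the 10 genes after each gene's mean over all mice was taken off, puts these patterns together. It was 0.34, 0.25 and 0.22 in WT sham mice and -0.47, -0.30 and -0.24 in WT TAC mice. In KI sham mice it was 0.014, 0.35 and 0.31, and in KI TAC mice -0.38, 0.15 and -0.25. WT groups were apart, while KI TAC mouse 6 lay above KI sham mouse 1. The summed level of the cardiomyocyte markers was lower after TAC in WT hearts, at 7105 to 9541 RPKM in WT sham and 4025 to 5294 in WT TAC mice. The list was split, since only Myh6 of the 7 passed. Tnni3 (-0.835), Myl2 (-0.76) and Pln (-0.496) also had negative estimates that did not pass. Tnnt2 (-0.31), Ryr2 (-0.087) and Actn2 (0.078) were closer to 0. In KI hearts the summed level was not lower, at 6317 to 8321 RPKM in KI sham (mean 7458) and 5990 to 8765 in KI TAC mice (mean 7524). Within KI TAC the highest of these sums was also that of mouse 6. The leukocyte markers, all 6 of which were in the table, summed to 61.4 to 108 RPKM in WT sham, 134 to 183 in WT TAC, 67.1 to 90.1 in KI sham and 87.3 to 104 in KI TAC hearts. The fibroblast markers, 5 of 5 in the table, summed to 103 to 162 RPKM in WT sham hearts and to 257, 129 and 580 in WT TAC mice 7, 9 and 10, with 124 to 206 in KI sham and 87.6 to 163 in KI TAC hearts. The smooth muscle markers, 4 of 4 in the table, summed to 35.5 to 44.8 RPKM in WT sham, 54.0 to 129 in WT TAC, 26.6 to 54.7 in KI sham and 41.2 to 81.9 in KI TAC hearts, so that the WT groups were apart. Of the 4, Cnn1, a calponin of smooth muscle, rose in WT hearts by 1.16 (limma adjusted p = 0.00905), while Acta2 (0.97), Tagln (0.28) and Myh11 (-0.085) did not pass. The part of any of these cell type differences in the BCAA results was not tested.

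**Figure D3:**
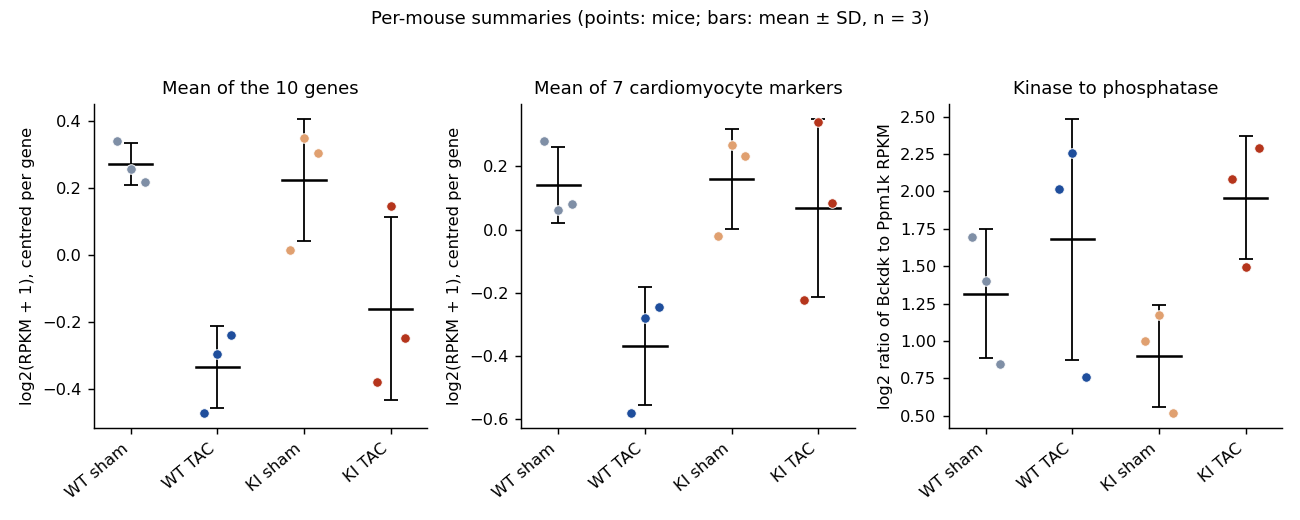
Per-mouse summaries in the 4 groups. The left panel is the mean of the 10 BCAA genes and the middle panel that of 7 cardiomyocyte markers, both as log2(RPKM + 1) centred per gene, and the right panel is the log2 ratio of Bckdk to Ppm1k. Points are mice and bars the mean ± SD of 3 mice, with both scores lowest in WT TAC mouse 7 and the ratio in all 3 KI TAC mice above that of every KI sham mouse.

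The other steps of BCAA breakdown were followed in a list of 18 genes, of which 17 were tested. In WT hearts all 17 had a negative log2 fold change (median -0.51), and 2 passed. Mmab, which makes the cobalamin cofactor of Mmut, fell by 1.01 (limma adjusted p = 0.00320), and Auh, the hydratase that follows the carboxylase in leucine breakdown, fell by 0.70 (limma adjusted p = 0.0229). Mmab was at 9.86 to 13.03 RPKM in WT sham and 4.41 to 5.49 in WT TAC mice, without overlap, and its call held without any of the 12 mice. That of Auh did not hold without WT sham mouse 1, 2 or 3 or WT TAC mouse 7 or 9 (largest limma adjusted p = 0.0987). In KI hearts Mmab was the only gene of the 17 to pass, with a fall of 0.82 (limma adjusted p = 0.00486) from 8.71 to 12.7 down to 5.16 to 6.52 RPKM. The KI median was -0.051 and turned to 0.074 under median-ratio scaling, so no direction can be given for the rest of the list in KI hearts. Dld, the E3 subunit that BCKDH shares with other dehydrogenase complexes, had differences of -0.23 in WT and -0.015 in KI hearts, neither past the threshold. Between KI TAC and WT TAC hearts all 17 estimates were positive (median 0.32) but 0 passed in limma or in limma-voom, while 5 of the 17 and 3408 of all 11240 genes had an unadjusted p under 0.05.

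Of 10 genes of BCAA transport and sensing 9 were tested, and in each genotype 3 rose and 0 fell past the threshold: Slc7a5, Slc7a6 and Slc7a8 in WT hearts and Slc7a5, Slc7a6 and Slc3a2 in KI hearts. Slc7a5, the light chain of the large neutral amino acid transporter LAT1, was at 3.97, 4.45 and 3.98 RPKM in WT sham mice and at 15.8, 15.1 and 8.53 in WT TAC mice. It was at 3.67, 4.19 and 3.96 in KI sham mice and at 16.8, 6.03 and 10.9 in KI TAC mice. In both genotypes every TAC mouse was above every sham mouse, with a log2 fold change of 1.42 ± 0.28 in WT hearts (limma adjusted p = 0.00688) and 1.21 ± 0.28 in KI hearts (limma adjusted p = 0.00827).

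Its heavy chain gene Slc3a2 was at 10.7 to 15.1 RPKM in WT sham and 14.6 to 22.5 in WT TAC mice (0.52 ± 0.25, limma adjusted p = 0.186). It rose in KI hearts, from 10.2 to 13.7 up to 22.3 to 41.7 RPKM (1.23 ± 0.25, limma adjusted p = 0.00330). Slc7a6, the light chain of a related exchanger, rose by 0.75 in WT and by 1.01 in KI hearts (limma adjusted p = 0.0152 and 0.00148). Slc7a8, the light chain of LAT2, rose by 0.70 in WT hearts (limma adjusted p = 0.0220) and was at 0.16 in KI hearts (limma adjusted p = 0.542). Its level was low, at 1.05 to 1.87 RPKM in WT sham and 2.44 to 3.14 in WT TAC mice. After TAC the KI hearts were lower than the WT hearts by 0.59 (limma adjusted p = 0.0488), a call lost under all 6 other settings that tested it (limma adjusted p from 0.0521 to 0.0967). The WT calls of Slc7a6 and Slc7a8 did not hold without WT sham mouse 2 or 3 or WT TAC mouse 7 (largest limma adjusted p = 0.0709 and 0.1001). Slc25a44, which carries BCAA into mitochondria, was at 8.39 to 12.9 RPKM in WT sham and 9.28 to 11.7 in WT TAC mice and did not pass in either genotype (0.025 and -0.31).

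Of 16 genes of transcriptional regulators and related factors, 3 fell in WT hearts and 0 rose. Klf15, the factor tied to BCAA gene transcription, was at 43.5, 66.1 and 65.4 RPKM in WT sham mice and at 17.0, 30.3 and 18.1 in WT TAC mice. The groups were apart, with a log2 fold change of -1.401 ± 0.36 (limma adjusted p = 0.0217), and the call did not hold without WT sham mouse 2 or 3 or WT TAC mouse 7 or 10 (largest limma adjusted p = 0.0917). Mlxipl, a glucose-responsive factor, fell by 0.86 and Rxra, the partner of many nuclear receptors, by 0.60 (limma adjusted p = 0.0257 and 0.0335), and each lost its call without any of several mice, WT sham mice 2 and 3 among them (largest limma adjusted p = 0.107 and 0.122).

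In KI hearts 7 of the 16 fell and 2 rose (Pparg by 0.63 and Nrf1 by 0.33, limma adjusted p = 0.0295 and 0.0452, named after their values were seen). The rise of Pparg did not hold without KI sham mouse 1 or 3 or KI TAC mouse 5 or 6, and that of Nrf1 passed without only 2 of the 12 mice (largest limma adjusted p = 0.114 and 0.134). Rxra and Mlxipl fell here too, by 0.88 and 0.77 (limma adjusted p = 0.00235 and 0.0264), the latter not without KI sham mouse 1, 2 or 3 or KI TAC mouse 5 (up to 0.106). Klf15 was at 26.6, 74.5 and 69.4 RPKM in KI sham and at 20.1, 33.2 and 22.1 in KI TAC mice, so that KI sham mouse 1 lay among the TAC mice. That mouse was also the lowest KI sham mouse in the score of the 10 BCAA genes. The change of Klf15 was -1.05 ± 0.36 (limma adjusted p = 0.0476), and it passed under 3 of 7 other settings and without 5 of the 12 mice in turn. The largest falls were those of Ppargc1b (-1.95, limma adjusted p = 0.00526), Ppara (-1.501, limma adjusted p = 0.00230) and Ppargc1a (-1.49, limma adjusted p = 0.00518), a nuclear receptor of lipid metabolism and coactivators of mitochondrial genes. Ppara was at 18.2 to 29.3 RPKM in KI sham and 6.75 to 8.85 in KI TAC mice, and Ppargc1a at 17.4 to 21.4 and 4.58 to 7.47. In WT hearts the estimates were -0.91 for Ppara and -0.68 for Ppargc1a, with overlapping groups (limma adjusted p = 0.0530 and 0.190). Esrra, an estrogen-related receptor that works with these coactivators, fell by 0.85 in KI hearts (limma adjusted p = 0.0196, up to 0.0771 without KI sham mouse 2 or 3 or KI TAC mouse 6) and stood at -0.50 in WT hearts (limma adjusted p = 0.179). Ppargc1b was the only regulator that differed between KI TAC and WT TAC hearts, lower by 1.93 (limma adjusted p = 0.0168), a call that did not hold without WT TAC mouse 7 or KI TAC mouse 5 or 6 (largest limma adjusted p = 0.0842). Acly, whose product BCKDK and PPM1K are also known to act on, was at 0.17 in WT and -0.040 in KI hearts, neither past the threshold.

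**Figure D4:**
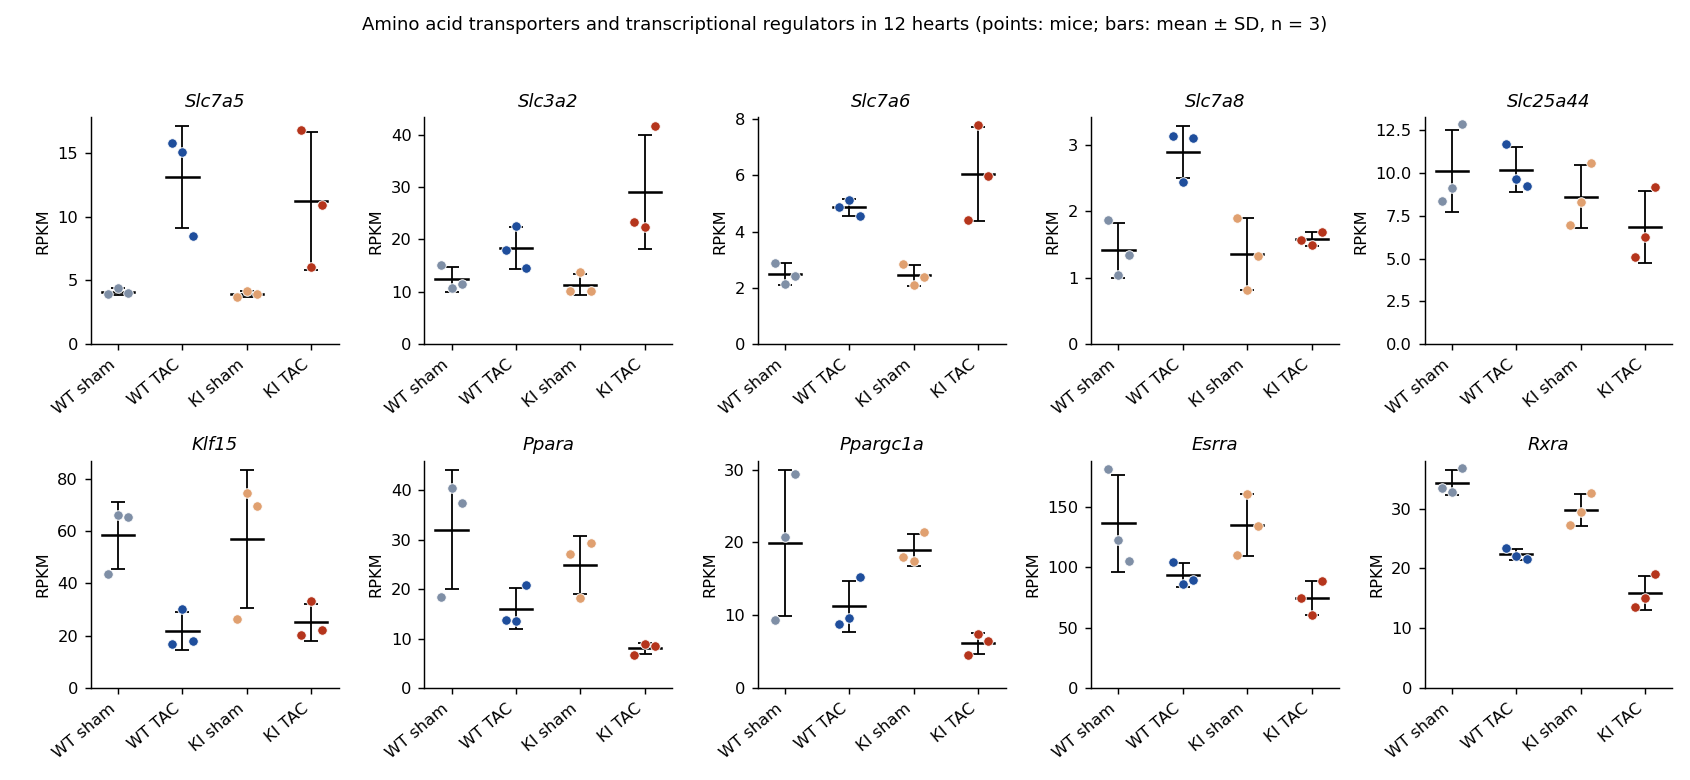
RPKM of 5 amino acid transporter genes (top) and 5 regulator genes (bottom) in the 12 hearts, each panel with its own axis from 0. Points are mice and bars the mean ± SD of 3 mice. Slc7a5 lies between 3.67 and 4.45 RPKM in the 6 sham mice and between 6.03 and 16.8 in the 6 TAC mice, while Klf15 is lower in WT TAC mice and KI sham mouse 1 than in the other sham mice.

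Other mitochondrial genes were set beside the BCAA genes. In WT hearts the median log2 fold change was -0.56 for 15 genes of fatty acid oxidation, -0.53 for 15 of the TCA cycle and -0.57 for 19 of the respiratory chain, beside -0.59 for the 10 BCAA genes. Of these, 2 fatty acid oxidation genes fell (Hadh by 0.91 and Cpt2 by 0.78, limma adjusted p = 0.0113 and 0.0245, both lost without WT TAC mouse 7 and that of Cpt2 also without WT sham mouse 1 or 2), and 0 genes of the TCA cycle or the respiratory chain passed in limma or limma-voom. Before adjustment 13 of the TCA cycle and 16 of the respiratory chain had a p under 0.05, all with negative estimates, and median-ratio scaling called 2 and 4 of them. In KI hearts the medians were -0.047, -0.035 and 0.13, beside -0.36 for the 10 BCAA genes. The signs of the first 2 lists turned under median-ratio scaling (0.087 and 0.10), while that of the 10 BCAA genes stayed negative. Cpt1b, the muscle carnitine palmitoyltransferase of fatty acid entry, fell in KI hearts by 0.66 (limma adjusted p = 0.0197, up to 0.0791 when KI sham mouse 3 or KI TAC mouse 5 was left out). The median of the 10 BCAA genes was thus the lowest of these lists in KI hearts. That of the 17 other BCAA genes tested was -0.051, so the lower median was not shared by the wider pathway. These differences between lists were not tested.

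The dehydrogenases most like BCKDH are those of pyruvate and 2-oxoglutarate, of whose 13 genes 12 were tested. In WT hearts Pdp2, a phosphatase that activates pyruvate dehydrogenase as PPM1K activates BCKDH, fell by 1.34, Pdk2, a kinase that inhibits it, by 0.92 and Ogdh by 0.69 (limma adjusted p = 0.00698, 0.00819 and 0.0289). The call of Ogdh did not hold without WT sham mouse 1, 2 or 3 or WT TAC mouse 7 or 9 (up to 0.117). In KI hearts Pdp2 fell by 2.02 and Pdp1 by 0.84, and Pdk4 rose by 2.08 (limma adjusted p = 0.000242, 0.00530 and 0.0315), the last lost without KI sham mouse 2 or 3 or KI TAC mouse 5 or 6 (up to 0.120). Pdp2 was at 8.42 to 10.2 RPKM in KI sham and 0.8002 to 2.33 in KI TAC mice, and its calls held in both genotypes when any mouse was left out.

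**Figure D5:**
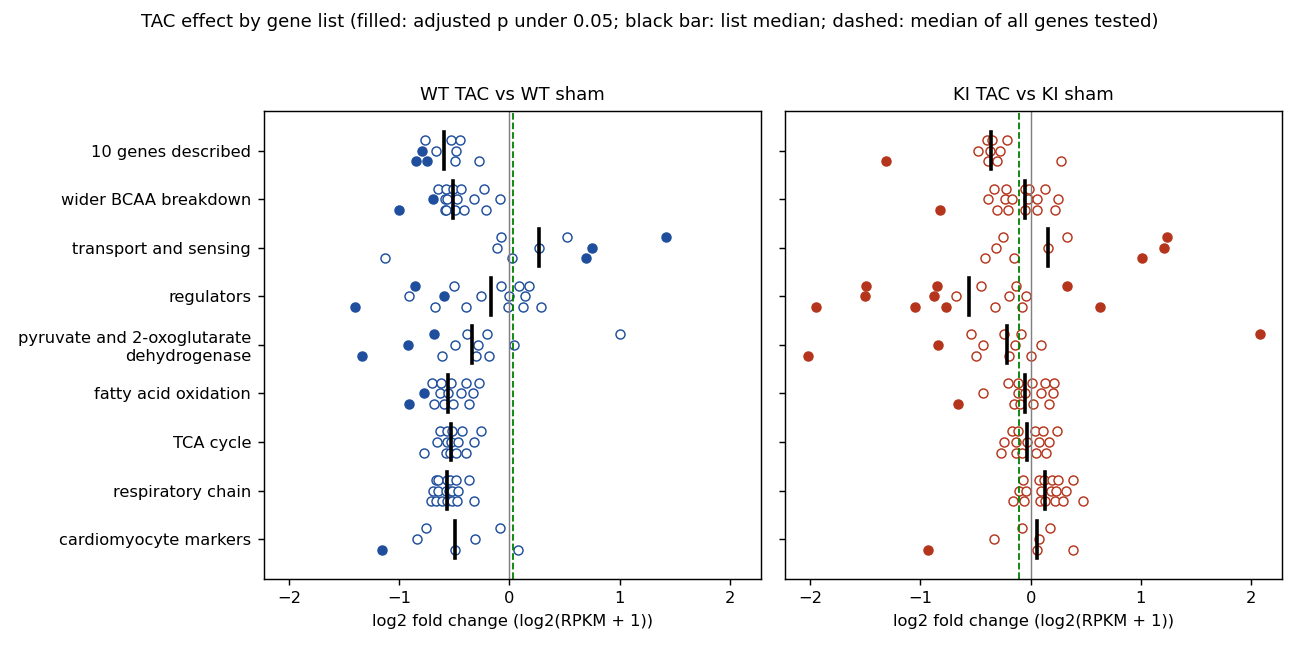
Log2 fold change of each gene of 9 lists, TAC against sham, in WT hearts (left) and KI hearts (right), from limma on log2(RPKM + 1). Circles are genes, filled where the adjusted p is under 0.05, black bars list medians and the dashed line the median of all genes tested. In WT hearts the BCAA, fatty acid oxidation, TCA and respiratory chain medians lie between -0.51 and -0.59, and in KI hearts the 10 BCAA genes keep a median of -0.36.

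Across the 12 mice, the gene outside every list most like the score of the 10 BCAA genes was Ctsf, a lysosomal protease (Pearson r = 0.97 of log2(RPKM + 1)), followed by Tmem38a (0.96), Coq9 (0.96), Acad11 (0.95) and Dcaf11 (0.95). Tmem38a encodes a potassium channel of the sarcoplasmic reticulum, and Coq9 and Acad11 act in coenzyme Q synthesis and fatty acid breakdown. Among listed genes Auh had the highest value of all genes tested (0.98), Mmab stood at 0.92, Klf15 at 0.90 and Slc7a5 at -0.93. Within the 10, Mccc2 followed the mean of the other 9 most closely (0.96), then Mccc1 (0.92) and Bckdk (0.90), and Bcat2 least (0.32). These values describe 12 mice that fall into 4 groups and share libraries between genes, and they carry no test.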

How the data were processed

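RNA of 12 mouse hearts (4 groups of 3) was measured as poly(A)-selected, strand-specific libraries sequenced as single reads of 75 bases. The authors trimmed reads with Trimmomatic 0.39, mapped them to GRCm38 with HISAT2 2.2.1, counted them with HTSeq 0.6.1 and tested them with edgeR 3.18.1 (limma 3.32.10, R 4.1.1). The table the authors deposited holds RPKM, and the step from counts to RPKM, its gene filter and whether counting used strand are not given in the sources used here. Values times GENCODE M21 exon length summed to 997702 to 1002226 per mouse, and 13546 of 13552 identifiers were found there. Depth was read from the value of 1 read (23651500 to 32453300 reads on genes). Intervals cover the spread between mice.

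Groups came from the genotype and treatment labels. log2(RPKM + 1) of 11240 genes (at least 1 RPKM in at least 3 mice) was fitted with limma 3.58.1 in R 4.3.3 (trend, 4 group means, 5 comparisons); a count model was not applied to RPKM. Adjusted p-values are Benjamini-Hochberg over all genes tested, threshold 0.05. The fit was tested on simulated data. The results were recomputed with 0.1 as pseudocount, without the filter, with at least 5 RPKM, quantile and median-ratio scaling, limma-voom on recovered reads, only the 2 groups compared, a replicate block, and without each mouse in turn. The members, lists and tests were chosen with earlier results of these data known. Named are all members, 10 listed genes in every case (Klf15, Ppara, Ppargc1a, Esrra, Bcat1, Dld, Acly, Slc25a44, Slc7a5 and Slc3a2), at most 4 called genes per list and comparison with the largest change, and the 5 genes most alike, with further genes named to complete a count. Python 3.11.15, pandas 2.3.3 and matplotlib 3.10.9 were used.

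The lists were the 10 members, 18 other BCAA genes, transport and sensing, regulators, pyruvate and 2-oxoglutarate dehydrogenase, fatty acid oxidation, TCA cycle, respiratory chain and markers of cell types. Of the latter, endothelial markers summed to 222 to 319 RPKM and the single fat marker in the table to 8.70 to 22.7 RPKM over the 12 hearts.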

Additional observations from a re-analysis of the deposited data

How the results depend on the processing

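Under 7 other settings and 12 fits that each left out a mouse, the negative sign of all 10 BCAA genes in WT hearts held throughout. Their count of calls (3) became 6 with quantile normalization and ran from 0 to 5 with mice left out: 0 without WT sham mouse 1, 2 or 3 or WT TAC mouse 7, and 5 without KI TAC mouse 6. In KI hearts the count (1) ran from 1 to 2, with 2 without KI TAC mouse 6. Of the 17 other BCAA genes, the 2 called in WT hearts became 7 with quantile normalization and 5 with median-ratio scaling, and ran from 1 to 2 with mice left out. The 0 called between KI TAC and WT TAC hearts became 1 at the filter of 5 RPKM, 3 with quantile normalization, 4 with median-ratio scaling and 0 to 1 with mice left out. Over all genes, 1242 were called between KI TAC and WT TAC hearts and 216 when only those groups were fitted. The 1299 of WT TAC against WT sham became 863, 646 and 677 without WT sham mouse 1, 2 and 3, 596 without WT TAC mouse 7 and 794 at the filter of 5 RPKM (fewer genes tested), and the 2620 of KI TAC against KI sham became 1453 without KI sham mouse 3 and 1591 at that filter. The 0 interaction calls became 240 without WT TAC mouse 9 and 182 without KI TAC mouse 7. The causes were not tested.

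Among the 10 BCAA genes, changes of sign touched genotype differences and interactions only, none of them past the threshold. Ivd (KI TAC against WT TAC) was at -0.0064 with quantile normalization, and leaving out a mouse changed the sign of 26 estimates of these genes. Between KI TAC and WT TAC hearts the log2 differences with mice left out ran from -0.046 to 0.27 for Dbt, -0.00034 to 0.11 for Bckdk, -0.44 to 0.18 for Ppm1k, -0.13 to 0.18 for Ivd, -0.092 to 0.22 for Mccc1 and -0.13 to 0.27 for Mmut. Between KI sham and WT sham hearts they ran from -0.19 to 0.22 for Bcat2, -0.28 to 0.074 for Bckdha, -0.11 to 0.058 for Dbt, -0.18 to 0.080 for Bckdk, -0.20 to 0.045 for Mccc2 and -0.0069 to 0.17 for Mmut. The interaction ran from -0.029 to 0.29 for Dbt, -0.028 to 0.24 for Bckdk and -0.21 to 0.19 for Mmut.

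WT sham and KI sham mice share numbers, but same-numbered mice did not deviate together (r = -0.22, -0.30 and 0.44), so the numbers do not pair them. A fit with the replicate block called 0 of the 10 genes, as without it. The 10 genes had 699 to 23085 reads per mouse, and counting error was not compared with the spread among mice.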

Other observations

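Between KI TAC and WT TAC hearts, genes of the mitochondrial lists set beside BCAA catabolism passed where none of the 10 BCAA genes did. Of all 11240 genes tested, 328 were higher and 914 lower. Among cell type markers, Tnni3 (0.95) and Myl2 (0.86) of cardiomyocytes passed as higher, with 2 of that list's 7 estimates negative. Csf1r (-0.91) of leukocytes and Cnn1 (-0.98) of smooth muscle passed as lower, with 2 of 5 leukocyte estimates positive. The part of cell types in these differences was not tested. Of the respiratory chain list 5 of 19 were higher in KI TAC hearts in limma (Cox4i1 by 1.05, Cox6c by 0.90, Atp5o by 0.88, Cox5b by 0.84 and, named after its value was seen to complete the count, Ndufs3 by 0.81), and median-ratio scaling raised that count for the respiratory chain to 16. Sucla2 of the TCA cycle was 0.77 higher and Hadh of fatty acid oxidation 0.69 higher (limma adjusted p = 0.0263 and 0.0434). Each of these 7 calls was lost without WT TAC mouse 7 and without KI TAC mouse 6 (limma adjusted p up to 0.171 over the mice left out). Among the genes of pyruvate dehydrogenase, the kinase gene Pdk4 was 2.62 higher and the phosphatase gene Pdp1 0.68 lower (limma adjusted p = 0.0237 and 0.0328), and both calls were lost when WT TAC mouse 7, WT TAC mouse 10, KI TAC mouse 5 or KI TAC mouse 6 was left out (up to 0.145). Pdk4 was also 1.54 higher in KI sham than in WT sham hearts, with all 3 KI mice above all 3 WT mice, although this did not pass (limma adjusted p = 1). The interaction did not pass for any of these genes, so no TAC effect is shown to depend on genotype.

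In WT hearts Myh6, the alpha myosin heavy chain of cardiomyocytes, fell by 1.15 (limma adjusted p = 0.0129, 0.0720 without WT TAC mouse 7), and the leukocyte genes S100a9, Cd68 and Lyz2 rose by 1.58, 1.22 and 0.99. Without WT sham mouse 2 or 3 the calls of S100a9 and Lyz2 were lost (up to 0.102). In KI hearts S100a9 and S100a8, calcium-binding proteins of neutrophils, rose by 2.77 and 1.91, and these calls held without any of the 12 mice. Csf1r, a receptor of macrophages on the same list, fell by 0.53 (limma adjusted p = 0.0419), and that call passed without only 3 of the 12 mice. Of the cardiomyocyte markers Pln, which restrains the calcium pump of the sarcoplasmic reticulum, fell in KI hearts by 0.93 (limma adjusted p = 0.0281, up to 0.0915 with a mouse left out, past the threshold for 7 of the 12).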
